A study of Mus musculus with 8 samples.

Results

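Sphingosine 1-phosphate (S1P) is a lipid that guides lymphocytes out of lymphoid organs, and the 10 genes described here make up its core system in mouse splenocytes. They are the receptor genes S1pr1, S1pr2, S1pr3, S1pr4 and S1pr5, the enzyme genes Sphk1, Sphk2 and Sgpl1, and Klf2 and Cd69, which act on S1pr1. They were chosen by name, 10 of the 51826 genes counted, with earlier results of these mice known. S1pr1 is a gene that the study picked out on these same mice. Differences of these 10 genes between the groups are therefore given as a description, and how many of them a fit over all genes called is set beside the share of all genes and is not read as a test of them.

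S1P is plentiful in blood and lymph and scarce inside lymphoid tissue, and lymphocytes follow this gradient through the receptor S1PR1 when they leave. Sphingosine kinases make S1P, S1P lyase destroys it for good, and phosphatases turn it back into sphingosine. The transcription factor KLF2 switches on S1pr1 in resting T cells and is lost on activation, whereas CD69 appears on activated cells and pulls S1PR1 off the surface. In the spleen, S1P receptors also place marginal zone B cells beside the blood stream and let NK cells and patrolling monocytes exit.

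The RNA came from total splenocytes of 8 female Balb/c mice, 4 given all-trans-retinoic acid (tRA), the active form of vitamin A, and 4 control mice given its vehicle, canola oil. Each day from weaning at 3 weeks to 3 months of age a dose was given by mouth, of 1 mg/kg for tRA, and no mouse received pristane, the oil that induces lupus in this model. The protocol text of the labels gives tRA at 1 mg/kg for all 8 mice, while the titles and the paper separate tRA from control mice, and the groups follow the titles. Counts on genes totaled between 30919272 and 37539631 per mouse, and levels are given as CPM, counts scaled to a common library size.

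In their immediate early genes, which cells switch on within minutes of a stimulus, tRA mice 3 and 4 stood apart from the other 6. These genes summed to 19398, 18749, 17695 and 16274 CPM in control mice 1 to 4 and to 18983, 14761, 7242 and 8983 CPM in tRA mice 1 to 4. The mean over this list of 14 genes lay 0.18 above the control mean in tRA mouse 1 on the log2 scale, and at -0.19, -1.35 and -1.05 in tRA mice 2, 3 and 4. The lowest values were those of tRA mice 3 and 4, and tRA mouse 2 was also below all control mice, by less. For 3 genes of the list, Fosb, Jun and Egr1, all 4 tRA mice were below all control mice, against 1.63% of all genes tested, and without tRA mice 3 and 4 their log2 fold changes were -0.34 (SE 0.150), -0.34 (SE 0.121) and -0.42 (SE 0.123). The library totals of tRA mice 3 and 4, 35165876 and 32042754 counts, lay within the range of the others. Mice of the same group were also compared over genes past a minimum count in each pair. Their distance was the chi-square of their counts divided by its degrees of freedom. The largest distances were those of tRA mouse 1 from tRA mouse 3 (72.5) and tRA mouse 4 (55.4), while tRA mice 3 and 4 were 21.4 apart. From tRA mouse 2 the distance was 39.9 to tRA mouse 3, 22.7 to tRA mouse 4 and 22.1 to tRA mouse 1. Control mouse 3 was farther from the other control mice (38.0 to 49.9) than these were from each other (14.1 to 27.4). The log2 fold change of each of the 10 genes is given with and without tRA mice 3 and 4, a setting added after the data were seen.

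All 10 genes passed the filter on low counts, as did 16484 genes in all. By edgeR's quasi-likelihood test, Benjamini-Hochberg adjusted, 0 of the 10 genes had an FDR under 0.1 in either direction, against 0% of all genes tested with tRA higher and 0% with tRA lower. The same fit held 1070 genes at an unadjusted p under 0.05 (6.49%), among them 2 of the 10, S1pr1 and S1pr2. DESeq2 called 27 of the 13625 genes to which it gave an adjusted p (0.198%), including 1 of the 10, S1pr1. Among its other calls were the neutrophil precursor markers Camp, Ngp, Ltf and Lcn2, the immediate early genes Jun and Egr1 and the heat shock gene Bag3. Without tRA mouse 4 the edgeR count over all genes was 3, the neutrophil granule genes Camp, Ngp and Ltf, and the same 3 were called without tRA mice 3 and 4. All 4 tRA mice lay above all 4 control mice for 1 of the 10 genes, S1pr1, and for 315 of all genes tested (1.91%), and below them for 0 of the 10 and 269 of all genes (1.63%). Of the 10 log2 fold changes, tRA over control, 5 were positive and 5 negative, with a median of 0.0036, against 0.0014 over all genes tested.

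S1pr1 encodes the receptor that carries T and B cells out of the spleen. Its gene (ENSMUSG00000045092, chromosome 3, 115710433 to 115715072 in GRCm38) took between 10755 and 16680 counts per mouse. Its level was 363, 348, 372 and 348 CPM in control mice 1 to 4 and 454, 477, 452 and 394 CPM in tRA mice 1 to 4. Every tRA mouse was above every control mouse, and tRA mouse 4 was the nearest to the controls. The fold change was 1.24 with a 95% interval, not adjusted for the number of genes, of 1.11 to 1.39. The FDR of S1pr1 was 0.757 by edgeR's quasi-likelihood test and 0.0469 by DESeq2, each Benjamini-Hochberg adjusted. The log2 fold change of 0.31 (SE 0.0744) was 0.38 (SE 0.0827) without tRA mice 3 and 4. In bulk splenocytes, a change in the number of cells that express a gene and a change in its RNA per cell cannot be told apart.

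Cell type markers give the makeup beside which S1pr1 is read, and their part in its difference was not tested. T cell markers summed to 2043, 2046, 2461 and 2382 CPM in control mice 1 to 4 and to 2450, 2286, 2311 and 2296 CPM in tRA mice 1 to 4. The groups overlapped, with control mice 3 and 4 as high as the tRA mice. Of the 11 T cell markers, 9 were higher on average with tRA and 2 lower, by log2 fold change, with a median of 0.11, and the gene with the most CPM was Lck. The 8 B cell markers summed to 7569, 7174, 6929 and 6322 CPM in control mice and to 7043, 7131, 7188 and 6974 CPM in tRA mice, again with overlap, 5 positive and 3 negative, a median of 0.025 and Cd79a as the gene with the most CPM. Without tRA mice 3 and 4 the T cell markers had 10 positive values and 1 negative, with a median of 0.099. In that setting the B cell markers had 4 positive and 4 negative values with a median of -0.0019.

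Markers of neutrophil precursors did separate the groups as S1pr1 did, in the other direction. They summed to 552, 697, 737 and 632 CPM in control mice 1 to 4 and to 251, 314, 344 and 491 CPM in tRA mice 1 to 4. All 8 had a negative log2 fold change, with a median of -0.90 (-1.26 without tRA mice 3 and 4), and for 5 of them every tRA mouse lay below every control mouse, against 1.63% of all genes tested. The gene with the most CPM was Ngp, at 263, 353, 360 and 323 CPM in control mice and 124, 153, 165 and 243 CPM in tRA mice. Heat shock genes, whose sums are given below, were lower with tRA too, but their sums overlapped, with tRA mouse 2 above control mouse 2. All 7 had an unadjusted p under 0.05 by edgeR's quasi-likelihood test, against 6.49% of all genes tested. For 3 of them every tRA mouse lay below every control mouse, against 1.63%. The part of both lists in the S1pr1 difference was not tested.

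S1pr2 encodes the receptor that keeps B cells inside germinal centres. Its gene (ENSMUSG00000043895) lies on chromosome 9 from 20962361 to 20976781. Its level was 4.30, 4.26, 4.05 and 4.49 CPM in control mice 1 to 4 and 4.46, 4.72, 6.24 and 6.29 CPM in tRA mice 1 to 4. The tRA mice 3 and 4 were high, and tRA mice 1 and 2 were near the controls, so that the groups overlapped at 4.46 and 4.49 CPM. At 0.35 (SE 0.151) its log2 fold change was the highest of the 10 genes in the fit of all mice with no covariate. It was 0.10 (SE 0.171) without tRA mice 3 and 4, where Cd69 (0.38) and S1pr1 (0.38) were higher. S1pr1 was also higher without tRA mouse 3 (0.30 against 0.27), tRA mouse 4 (0.37 against 0.27) or control mouse 3 (0.33 against 0.31). Under the other alternatives S1pr2 stayed the highest. The S1pr2 levels rest on 137 to 230 counts per mouse. Exact Poisson 95% intervals, which cover counting error only, were 117 to 164 around the 139 counts of control mouse 4. For the 230 counts of tRA mouse 3 the interval was 201 to 262.

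S1pr3, best known in endothelium and marginal zone B cells, is on chromosome 13 (ENSMUSG00000067586, 51408639 to 51422797). Its level was 22.8, 22.6, 24.0 and 26.5 CPM in control mice 1 to 4 and 23.2, 27.2, 30.9 and 23.8 CPM in tRA mice 1 to 4. Only tRA mice 2 and 3 were above the controls. With tRA the log2 fold change was 0.13 (SE 0.104), and it was 0.043 without tRA mouse 3, 0.19 without tRA mouse 1 and 0.070 (SE 0.117) without tRA mice 3 and 4. Marginal zone B cell markers summed to between 1296 and 1440 CPM in control mice and between 1227 and 1347 CPM in tRA mice, 2 of 6 positive with a median of -0.047, and Cr2 had the most CPM. Among the 8 endothelial markers Pecam1, which leukocytes also express, had the most CPM, from 233 to 244 in control mice and 237 to 244 in tRA mice. The list summed to 249, 261, 260 and 245 CPM in control mice 1 to 4 and 249, 252, 266 and 252 CPM in tRA mice 1 to 4, with overlap, and most of each sum is Pecam1. The mean over the list on the log2 scale, against the control mean, was -0.36, 0.16, 0.32 and -0.13 in control mice 1 to 4 and -0.070, -0.19, 0.36 and -0.0023 in tRA mice 1 to 4, highest in tRA mouse 3, as S1pr3 was. The part of endothelial cells in the S1pr3 values was not tested. Of 7 tested, 4 had a positive log2 fold change, with a median of 0.0017, and without tRA mice 3 and 4 there was 1, with a median of -0.29. Emcn had 0 counts in control mouse 4.

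S1pr4 is a receptor largely restricted to haematopoietic cells. It lies on chromosome 10 from 81497747 to 81500132 (ENSMUSG00000044199). Its level was 71.4, 73.5, 81.0 and 73.9 CPM in control mice 1 to 4 and 69.5, 75.9, 86.9 and 82.8 CPM in tRA mice 1 to 4. As for S1pr2, tRA mice 3 and 4 had the highest values, while tRA mouse 1 had the lowest of all 8. Its log2 fold change of 0.072 (SE 0.0801) became -0.044 (SE 0.0887) without tRA mice 3 and 4. It was 0.13 without tRA mouse 1 and 0.020 without tRA mouse 3.

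S1pr5 serves the exit of NK cells and patrolling monocytes. The gene (ENSMUSG00000045087, 21242912 to 21248443) is on chromosome 9, 266130 bp from S1pr2. Its level was 10.1, 9.74, 13.2 and 8.18 CPM in control mice 1 to 4 and 9.83, 8.44, 8.41 and 10.2 CPM in tRA mice 1 to 4. Control mouse 3 was high, and the other 7 mice overlapped. Its log2 fold change of -0.16 (SE 0.150) was -0.024 without control mouse 3 and -0.17 (SE 0.188) without tRA mice 3 and 4. NK cell markers had their highest sum in the same control mouse, at 439 CPM against 283 to 374 in the other control mice and 311 to 356 in the tRA mice, with Gzma at the most CPM, 3 of 7 positive, a median of -0.032 and Klra8 at 0 counts in control mouse 3. Patrolling monocyte markers summed to 141, 215, 208 and 189 CPM in control mice and 142, 154, 172 and 204 CPM in tRA mice, with 1 of 5 positive, a median of -0.15 (-0.32 without tRA mice 3 and 4) and Ace at the most CPM. For 1 of the 5, Cd300e, every tRA mouse was below every control mouse, against 1.63% of all genes tested, and its log2 fold change of -0.52 (SE 0.149) was -0.80 (SE 0.148) without tRA mice 3 and 4. The part of both cell types in the S1pr5 values was not tested.

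Scaled by exon length, which allows levels of different genes to be compared, S1pr1 made up most of the receptor transcripts. Its share of the summed CPM per kilobase of the 5 receptors was 73.9% ± 0.844 (SD, n = 4) in control mice and 77.1% ± 2.47 (SD, n = 4) in tRA mice. The shares in tRA mice 1 to 4 were 79.3%, 78.9%, 75.8% and 74.2%, and in control mice 1 to 4 they were 75.1%, 73.9%, 73.0% and 73.7%. The groups overlapped through tRA mouse 4. S1pr4 followed with 19.8% ± 0.639 (SD, n = 4) in control mice and 17.5% ± 2.09 (SD, n = 4) in tRA mice. S1pr3, S1pr5 and S1pr2 held 3.39%, 2.58% and 0.338% in control mice and 3.11%, 1.96% and 0.362% in tRA mice.

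**Figure D1:**
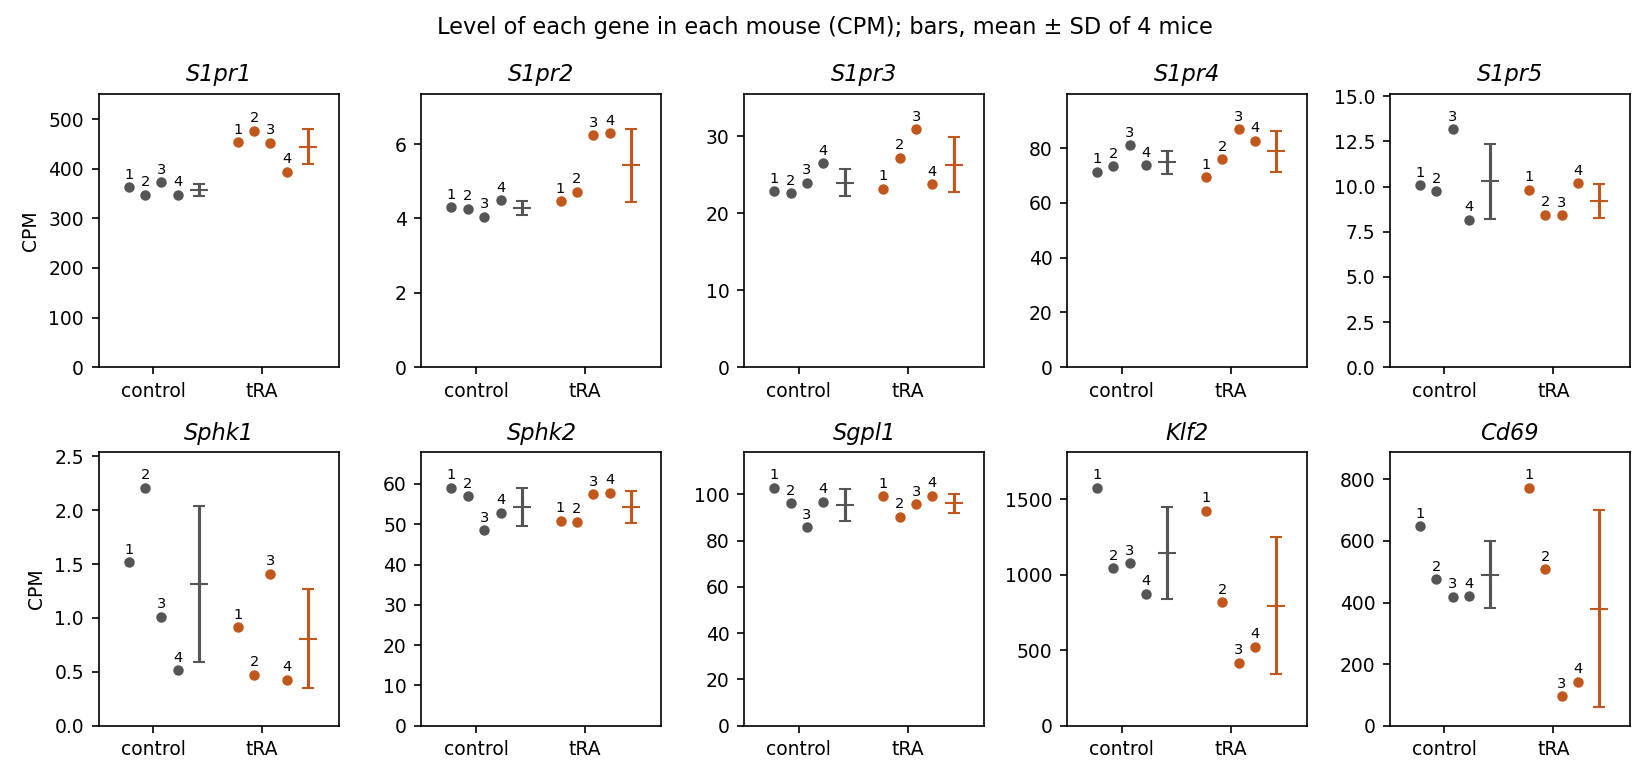
Level of each of the 10 genes in CPM (vertical axes, from 0) in the 4 control and the 4 tRA mice, with points numbered by mouse and bars giving mean ± SD of 4 mice. The tRA mice are at 394 to 477 CPM for S1pr1, above all control mice, and tRA mice 3 and 4 are low for Klf2 and Cd69.

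Sphk1 and Sphk2 encode the kinases that make S1P. Sphk1 (ENSMUSG00000061878, chromosome 11, 116530925 to 116536674) was at 1.52, 2.21, 1.01 and 0.517 CPM in control mice 1 to 4 and at 0.916, 0.472, 1.41 and 0.428 CPM in tRA mice 1 to 4. Both groups ranged widely and overlapped. These levels come from 14 to 71 counts per mouse, and the exact Poisson 95% interval of the 14 counts in tRA mouse 4 is 7.65 to 23.5. Its log2 fold change of -0.69 (SE 0.474) was the lowest of the 10 genes in the fit of all 8 mice with no covariate. It was -0.33 without control mouse 2, where Klf2 was lower at -0.56, and -1.11 without tRA mouse 3. Without tRA mouse 1 Sphk1 was at -0.75, and Klf2 (-0.96) and Cd69 (-0.98) were lower. Without tRA mice 3 and 4 Sphk1 was at -0.92 (SE 0.540).

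Sphk2 (ENSMUSG00000057342) lies on chromosome 7 from 45709467 to 45718002. Its level was 59.1, 57.0, 48.5 and 52.9 CPM in control mice 1 to 4 and 50.9, 50.6, 57.5 and 57.8 CPM in tRA mice 1 to 4. The groups overlapped throughout, with tRA mice 3 and 4 above tRA mice 1 and 2. The log2 fold change was -0.0040 with a 95% interval of -0.19 to 0.18, and it was 0.026 with library size alone and -0.10 without tRA mice 3 and 4. Of the 4159 bp of Sphk2 exons, 373 overlap Rpl18 and 539 overlap Dbp on the opposite strand. Whether the counting used the strand is not given in the sources used here, so reads in these stretches cannot be assigned to either gene for certain. Rpl18 itself was at 652, 554, 681 and 586 CPM in control mice and 621, 459, 378 and 450 CPM in tRA mice. Dbp was between 11.7 and 13.9 CPM in control mice and between 11.4 and 12.3 CPM in tRA mice. S1pr3, S1pr5 and Sphk1 share 45, 51 and 192 bp of exon with the opposite-strand genes Gm32834, Gm48303 and Gm29292, none of which passed the filter on low counts.

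Sgpl1 encodes S1P lyase, the enzyme whose loss traps lymphocytes in lymphoid organs. Its gene (ENSMUSG00000020097, chromosome 10, 61098642 to 61147703) was at 103, 96.1, 85.8 and 96.9 CPM in control mice 1 to 4 and at 99.2, 90.4, 95.7 and 99.4 CPM in tRA mice 1 to 4. All 4 tRA mice lay within the range of the controls. For Sgpl1 the log2 fold change was 0.011 with a 95% interval of -0.14 to 0.17. It was -0.043 without control mouse 3, -0.0038 without tRA mouse 1, -0.0051 without tRA mouse 4 and -0.011 without tRA mice 3 and 4.

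Klf2 (ENSMUSG00000055148, chromosome 8, 72319033 to 72321656) took between 15370 and 58253 counts per mouse. Its level was 1577, 1045, 1077 and 874 CPM in control mice 1 to 4 and 1424, 818, 417 and 524 CPM in tRA mice 1 to 4. The tRA mice 3 and 4 were the lowest of all, whereas tRA mouse 1 was higher than all control mice but control mouse 1. The mean was 1143 ± 302 CPM (SD, n = 4) in control mice and 796 ± 452 CPM (SD, n = 4) in tRA mice. The log2 fold change of -0.52 (SE 0.333) was -0.029 (SE 0.243) without tRA mice 3 and 4. It was -0.96 without tRA mouse 1 and -0.31 without tRA mouse 3.

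Cd69 (ENSMUSG00000030156, chromosome 6, 129267325 to 129275436) was at 647, 476, 419 and 421 CPM in control mice 1 to 4 and at 773, 507, 96.9 and 142 CPM in tRA mice 1 to 4. The highest value was that of tRA mouse 1, and the lowest were those of tRA mice 3 and 4. The mean was 491 ± 108 CPM (SD, n = 4) in control mice and 380 ± 320 CPM (SD, n = 4) in tRA mice. The log2 fold change of -0.37 (SE 0.526) turned to 0.38 (SE 0.197) without tRA mice 3 and 4. It was -0.98 without tRA mouse 1 and -0.050 without tRA mouse 3.

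Klf2 and Cd69 were low in the same mice as the immediate early genes, whose part in their values was not tested. Against the control mean on the log2 scale, Klf2 was at 0.35, -0.45, -1.42 and -1.09 in tRA mice 1 to 4, and Cd69 was at 0.68, 0.072, -2.32 and -1.76. All 14 immediate early genes had a negative log2 fold change, with a median of -0.44, and without tRA mice 3 and 4 there were 8 positive and 6 negative ones with a median of 0.026. Fos, the gene of this list with the most CPM, was at 3337, 3230, 3302 and 2866 CPM in control mice 1 to 4 and 3563, 2762, 1117 and 1420 CPM in tRA mice 1 to 4. Heat shock genes summed to 6225, 5149, 9382 and 6347 CPM in control mice and 4096, 5240, 2679 and 4902 CPM in tRA mice, all 7 with a negative log2 fold change, a median of -1.03 and Hspa8 at the most CPM. Without tRA mice 3 and 4 their median was -0.82. S1pr1 was not low in tRA mice 3 and 4, where it stood 0.34 and 0.14 above the control mean on the log2 scale.

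**Figure D2:**
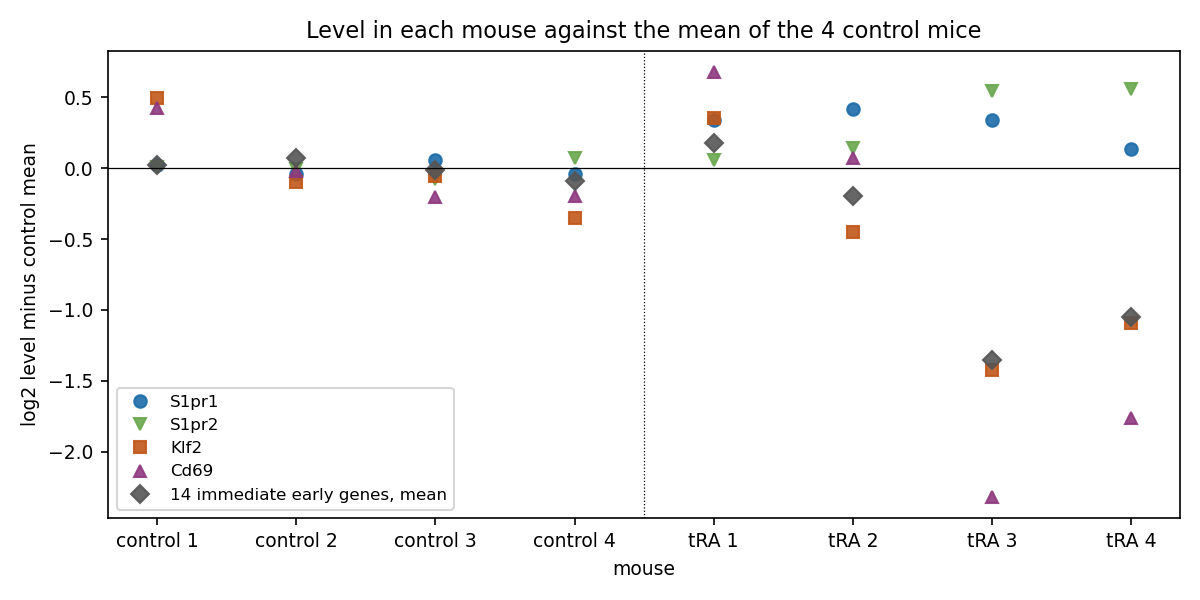
Log2 level of S1pr1, S1pr2, Klf2 and Cd69, and the mean over 14 immediate early genes, in each mouse (horizontal axis) minus the mean of the 4 control mice (vertical axis, 0 line). In tRA mice 3 and 4, Klf2, Cd69 and the immediate early genes lie at -1.05 or lower, while S1pr1 and S1pr2 lie above 0.

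Per kilobase of exon, the order of the levels was the same in both groups. In control mice the mean CPM per kilobase was 619 for Klf2, 117 for S1pr1, 75.4 for Cd69 and 31.4 for S1pr4, and the ranges of these 4 genes did not overlap. The levels of Sgpl1 (15.5) and Sphk2 (13.1) overlapped, as did those of S1pr3 (5.37) and S1pr5 (4.12). S1pr2 (0.536) and Sphk1 (0.275) came last. In tRA mice the means were 431 for Klf2, 146 for S1pr1, 58.4 for Cd69, 33.0 for S1pr4, 15.7 for Sgpl1, 13.0 for Sphk2, 5.89 for S1pr3, 3.69 for S1pr5, 0.681 for S1pr2 and 0.169 for Sphk1. Cd69 ranged from 14.9 to 119 CPM per kilobase there and overlapped S1pr4 and Sgpl1, and no other neighbours in the order overlapped.

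**Figure D3:**
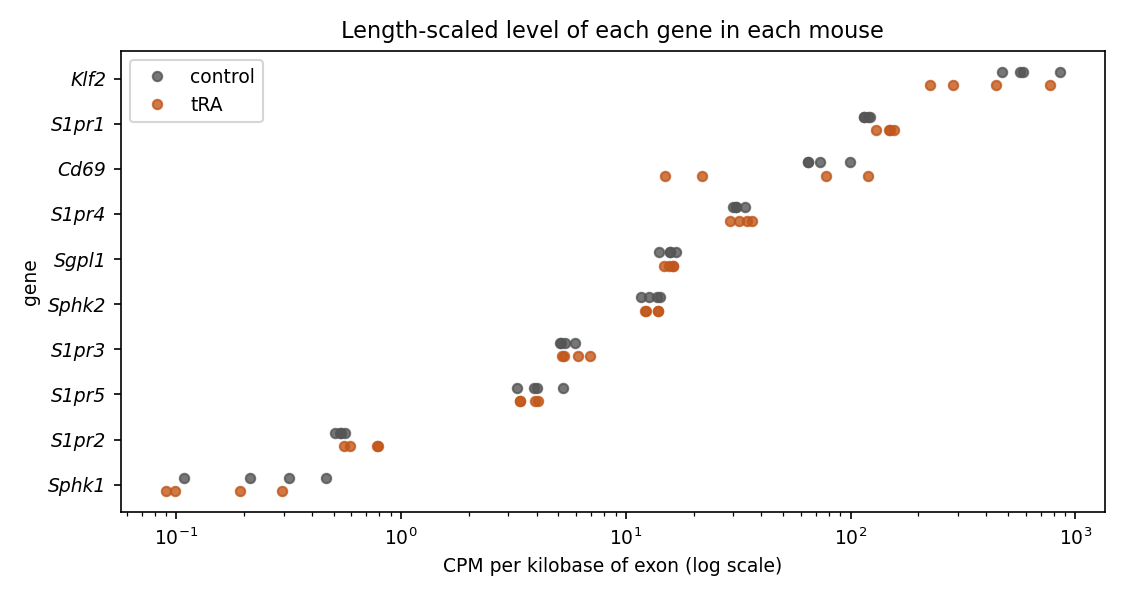
Level of each gene in CPM per kilobase of exon (horizontal log axis) in the 4 control and the 4 tRA mice, each point a mouse and genes ordered by the control mean. Klf2 leads at a control mean of 619 and Sphk1 is last at 0.275.

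Around these 10 genes, 97 others were chosen for known roles in the pathway, in Klf2 control or in lymphocyte homing, or as other Klf family members. They are called pathway genes here. Of these, 95 passed the filter on low counts, and Acer1 and Klf17 did not. By edgeR's quasi-likelihood test, Benjamini-Hochberg adjusted, 0 of the 95 were called at an FDR under 0.1, and DESeq2 called 0. At an unadjusted p under 0.05, 5 were higher and 1 was lower in tRA mice, against 485 higher and 585 lower of the 16484 genes tested (6.49% together). In all, 55 log2 fold changes were positive and 40 negative, with a median of 0.024. The genes named from each list are those with the most CPM, not scaled by length, and those with the highest and the lowest log2 fold change.

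Exporters and carriers of S1P, 8 genes, had 4 positive and 4 negative log2 fold changes with a median of -0.083 (-0.018 without tRA mice 3 and 4). They ran from -0.28 (SE 0.271) for Mfsd2b, the exporter of red cells and platelets, to 0.29 (SE 0.148) for the lipid transporter Abca1, and without tRA mice 3 and 4 the values were -0.58 (SE 0.256) and 0.33 (SE 0.163). Abca7 had the most CPM, between 279 and 327 in control mice and between 292 and 320 in tRA mice. Phosphatases of S1P and related lipids, 5 genes, had a median of 0.038, with Sgpp2 the highest at 0.18 (SE 0.201), Plpp1 the lowest at -0.15 (SE 0.192) and Sgpp1 at the most CPM. Without tRA mice 3 and 4 the median was 0.14, with Sgpp2 at 0.24 (SE 0.258) and Plpp1 at -0.31 (SE 0.215).

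A further list joined ceramidases, which provide the sphingosine for S1P, with genes that make, regulate or use ceramide. Sgms2 and Ugcg, named below, are of those that use it. Of the 24 genes of this list that were tested, 17 log2 fold changes were positive and 7 negative, with a median of 0.047. Without tRA mice 3 and 4 there were 14 positive and 10 negative ones with a median of 0.026. Sgms2, a sphingomyelin synthase, was at 3.11, 5.38, 2.72 and 4.04 CPM in control mice 1 to 4 and 5.80, 6.49, 4.77 and 8.56 CPM in tRA mice 1 to 4. Only tRA mouse 3 was within the control range. Its log2 fold change was 0.75 (SE 0.239, FDR 0.757 by edgeR's quasi-likelihood test, Benjamini-Hochberg adjusted), and it was 0.69 without tRA mice 3 and 4. Cers5 was lowest at -0.11 (SE 0.0600), and Ugcg had the most CPM.

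The 21 genes of receptor signalling and desensitization had a median log2 fold change of 0.0018, with Gnai3, a G protein subunit, highest at 0.16 (SE 0.0734) and Arhgef1 at the most CPM. Rgs16, which shortens G protein signals, was at 7.90, 8.31, 11.2 and 11.1 CPM in control mice 1 to 4 and 7.79, 6.39, 2.14 and 2.08 CPM in tRA mice 1 to 4. It was the 1 gene of 95 in the pathway lists with all 4 tRA mice below the controls, against 1.63% of all genes tested, tRA mouse 1 by little and tRA mice 3 and 4 by far. The log2 fold change was -1.07 (SE 0.386, FDR 0.757 by edgeR's quasi-likelihood test, Benjamini-Hochberg adjusted) and -0.44 (SE 0.195) without tRA mice 3 and 4.

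The regulators upstream of Klf2, 13 genes, ran from -0.14 (SE 0.0722) for Map2k5, a kinase of the ERK5 pathway, to 0.14 (SE 0.0749) for the ubiquitin ligase gene Smurf1, with a median of 0.024, and without tRA mice 3 and 4 these were -0.069, 0.11 and 0.043. Mef2d, a transcription factor of this pathway, had the most CPM, between 359 and 486 in control mice and between 374 and 458 in tRA mice. Other members of the Klf family, 14 tested, had 3 positive and 11 negative log2 fold changes with a median of -0.066, and 10 positive and 4 negative ones without tRA mice 3 and 4. Klf4 was lowest at -0.60 (SE 0.376), with 106 and 135 CPM in tRA mice 3 and 4 against 351 to 447 CPM in control mice, and its value without these mice was 0.017. Klf6, with the most CPM, was at 1364, 980, 343 and 582 CPM in tRA mice 1 to 4, against 810 to 1274 CPM in control mice. Klf15 was highest at 0.73 (SE 0.478), on levels between 0.162 and 1.06 CPM, and it was 0.015 (SE 0.550) without tRA mice 3 and 4.

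Klf3, singled out after its values were seen, was the 1 gene of 95 in the pathway lists with every tRA mouse above every control mouse, against 1.91% of all genes tested. Its level was 267, 264, 231 and 261 CPM in control mice 1 to 4 and 284, 306, 310 and 352 CPM in tRA mice 1 to 4. Klf3 had a log2 fold change of 0.29 (SE 0.0819, FDR 0.757 by edgeR's quasi-likelihood test, Benjamini-Hochberg adjusted), and 0.20 without tRA mice 3 and 4.

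Of 10 lymphocyte homing genes tied to KLF2 and FOXO1, 9 had a positive log2 fold change, with a median of 0.13, and 8 had one without tRA mice 3 and 4, with a median of 0.17. The T cell markers above had 9 of 11 positive with a median of 0.11, and their part in these values was not tested. The exception with all 8 mice was Cxcr4, also the gene of this list with the most CPM, a receptor that retains cells in the bone marrow. It was at 1540, 1108, 952 and 1029 CPM in control mice 1 to 4 and 1629, 1111, 260 and 404 CPM in tRA mice 1 to 4. As for Klf2 and Cd69, tRA mice 3 and 4 were low, and the log2 fold change of -0.44 (SE 0.463) was 0.24 without them. Ccr9, a gut homing receptor, was highest at 0.45 (SE 0.160, FDR 0.757 by edgeR's quasi-likelihood test, Benjamini-Hochberg adjusted), with 14.3, 16.9, 16.2 and 20.0 CPM in control mice and 16.3, 22.3, 26.2 and 27.3 CPM in tRA mice. Without tRA mice 3 and 4 its value was 0.20.

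The genes most like S1pr1 and Klf2 were sought among 8773 other protein-coding genes with a mean of at least 10 CPM, by the root mean square difference of log2 CPM over the 8 mice after each gene was centred on its own mean. Closest to S1pr1 were Zfp961 (0.057), Ints12 (0.073), Lztfl1 (0.076), Ankra2 (0.081) and Dnttip2 (0.083), where S1pr1 itself had an SD of 0.19. Zfp961 was at 39.2, 35.6, 37.0 and 34.5 CPM in control mice 1 to 4 and 45.4, 45.6, 43.1 and 41.0 CPM in tRA mice 1 to 4, so that its lowest value with tRA was also that of tRA mouse 4. Closest to Klf2, which had an SD of 0.66, were Prr7 (0.074), Fam43a (0.13), Junb (0.14), Jund (0.15) and Rhob (0.15). Prr7 was at 28.2, 20.6, 19.9 and 17.0 CPM in control mice 1 to 4 and 25.7, 17.2, 7.62 and 9.99 CPM in tRA mice 1 to 4, low in tRA mice 3 and 4 as Klf2 was. Junb is itself in the immediate early list. Genes sought in this way share the pattern over the mice by choice, so that these likenesses are a description only.

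The sums of the remaining marker lists overlapped between the groups. Red pulp macrophage markers had 2 of 8 positive log2 fold changes (median -0.030, most CPM Hmox1), cDC markers 3 of 8 (median -0.11, Itgax), and platelet and megakaryocyte markers 2 of 5 (median -0.095, Itgb3). Without tRA mice 3 and 4 these lists had 0 of 8 (median -0.26), 1 of 8 (median -0.22) and 0 of 5 (median -0.13). Stromal markers had 3 of 5 positive (median 0.027), summed to 8.79 CPM or less in every mouse, and included Pdgfra and Ccl19 at 0 counts in at least 1 mouse, with Pdgfrb at the most CPM. Their median was -0.47 without tRA mice 3 and 4, with 1 positive of the 6 that passed the filter then. Erythroid markers, led by Hbb-bs in CPM, summed to 815, 1531, 2400 and 494 CPM in control mice 1 to 4 and 2289, 626, 3547 and 590 CPM in tRA mice 1 to 4, with 5 of 7 positive and a median of 0.43, or 4 of 7 and 0.16 without tRA mice 3 and 4. Control mouse 3 and tRA mice 1 and 3 were the richest in erythroid RNA.

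Promoter sequence from RefSeq (GRCm38.p6) was at hand for 8 of the 10 genes, not S1pr1 and Cd69, in 13 windows of 250 bases before a start of transcription. They were searched on both strands for AGGTCA, the half-site that retinoic acid receptors bind in pairs, for CCACCC, a box that Klf factors bind, and for the MEF2 site, through which MEF2 factors drive Klf2. AGGTCA was found in windows of 2 of the 8 genes, S1pr2 and Sphk1, against 14.0% of 32851 promoters. CCACCC was found for 6 genes, Klf2, S1pr3, S1pr4, S1pr5, Sphk1 and Sphk2, against 28.1% of promoters. In both searches a gene with several windows, such as Sphk1, had more chances than a single promoter. The MEF2 site was found for 1 gene, Klf2, against 0.508% of promoters. A match describes letters and not a bound site.

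The sequences of S1pr2 and Klf2 are shown. S1pr2 was chosen for its log2 fold change, the highest of the 10 genes in the fit of all mice. That rank was not kept without tRA mouse 3, tRA mouse 4, both of these, or control mouse 3. Klf2 was chosen because it was low in the same mice as the immediate early genes. AGGTCA is in capitals in the S1pr2 sequence and the MEF2 site is in capitals in that of Klf2. The S1pr2 window is chr9:20976794-20977043 on the minus strand, and that of Klf2 is chr8:72318812-72319032 on the plus strand, without the bases that GENCODE places inside the gene. Counted from the RefSeq start of transcription, which lies inside the GENCODE gene for Klf2, the half-site begins 205 bases before it in S1pr2 and the MEF2 site 118 bases before it in Klf2.
S1pr2: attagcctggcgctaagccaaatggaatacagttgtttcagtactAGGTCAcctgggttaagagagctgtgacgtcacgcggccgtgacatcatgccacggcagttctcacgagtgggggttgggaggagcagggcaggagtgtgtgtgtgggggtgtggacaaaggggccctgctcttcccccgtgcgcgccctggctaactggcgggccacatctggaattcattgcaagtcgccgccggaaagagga
Klf2: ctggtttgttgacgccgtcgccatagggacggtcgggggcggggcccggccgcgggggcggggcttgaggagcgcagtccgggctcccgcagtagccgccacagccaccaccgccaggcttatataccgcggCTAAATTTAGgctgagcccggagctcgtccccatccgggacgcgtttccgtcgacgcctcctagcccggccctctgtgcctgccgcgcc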

How the data were processed

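Gene expression was measured by RNA sequencing of splenocytes from 4 control and 4 tRA mice. The authors deposited raw counts per gene, without normalization, and these counts are the only values used. The accounts of how they were made disagree on the tools. The paper names ea-utils and Btrim for trimming, Bowtie2 and Tophat2 for alignment and HTSeq for counting. The submitters' processing notes name STAR 2.5.2b and featureCounts 1.5.1 instead. Both name DESeq2, with version 1.26.0 given in the notes. The genome is named as one from Ensembl in the paper and as GRCm38 in the notes. A comparison table of the authors, with normalized means, fold changes and p-values, was not used here. Whether the counting used the strand is not given in the sources used here.

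Of 51826 gene identifiers, 51633 matched GENCODE M21 (GRCm38), which gave symbols, positions and exon lengths. In R 4.3.3, edgeR 4.0.16 kept genes by filterByExpr with a minimum of 10 counts, scaled libraries by TMM and compared the groups by the quasi-likelihood test with all 8 mice and no covariate. P-values were adjusted by the Benjamini-Hochberg method over all genes tested, with calls at an FDR under 0.1. The fit was tested on simulated data. DESeq2 1.42.0, RLE normalization, library size alone, other filters, the replicate number as a block and each mouse left out were the alternatives.

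The members and gene lists were chosen with earlier results of these data known. Genes were named by rule: the 10 members, in each pathway list the gene with the most CPM and those with the highest and lowest log2 fold change, in each marker list the gene with the most CPM and those at 0 counts, and the 5 genes most like S1pr1 and Klf2. Klf3, Cd300e, Fosb, Jun, Egr1, the genes called only under an alternative, the pathway genes that failed the filter and the genes that overlap members were named outside it, after their values were seen. Of 220 listed genes, 219 were matched. Means over a list used log2 of CPM plus 1.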

Additional observations from a re-analysis of the deposited data

How the results depend on the processing

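Over all genes, the number of calls at an FDR under 0.1 was 0 by edgeR's quasi-likelihood test (1070 genes at an unadjusted p under 0.05), 27 with DESeq2, and 6 (Camp, Gm10736, Igkv8-19, Ltf, Ngp and 5830411N06Rik) when genes with low counts were kept. Leaving out each mouse in turn gave 0 to 3, the 3 without tRA replicate 4, and without tRA mice 3 and 4, a setting added after the data were seen, it was 3. It was 0 with RLE normalization, with library size alone and with at least 10 counts in every sample, where 1077, 1158 and 1025 genes had an unadjusted p under 0.05. At that p there were 2105 when tRA replicate 1 was left out and 657 when tRA replicate 4 was. Calls among the pathway genes numbered 0 under every alternative that was run.

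Of 150 member values under the alternatives, 11 changed sign. These were the log2 fold change of Sphk2 with library size alone (0.026), those of S1pr4 (-0.044), Sgpl1 (-0.011) and Cd69 (0.38) without tRA mice 3 and 4, and others with a mouse left out, where Sphk2 ranged from -0.062 to 0.039 and Sgpl1 from -0.043 to 0.050. The cause was not tested. With each mouse left out, S1pr1 ranged from 0.27 to 0.37, S1pr2 from 0.27 to 0.43, S1pr5 from -0.25 to -0.024, Klf2 from -0.96 to -0.31 and Cd69 from -0.98 to -0.050.

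Both groups carry the mouse numbers 1 to 4. Across genes, correlations between the deviations of mice with the same number were 0.23, -0.028, -0.032 and 0.33. Mice 1 and 4 correlated best with their own number, and mice 2 and 3 did not. With this split the number was not taken as a pairing in the main fit. A fit with the replicate block called 0 genes and 0 pathway genes, with 1200 genes and 11 pathway genes (6 without the block) at an unadjusted p under 0.05. With the block the log2 fold change of Cd69 was -0.82, against -0.37, and that of Klf2 was -0.65, against -0.52.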
